A study of Mus musculus with 45 samples.

Results

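The meningeal macrophages (mMΦ) of the mouse brain were compared at postnatal day 3 (P3) with those of the embryo at E14.5, the labels' age in days of gestation, over all genes. The members were the 6 mMΦ libraries whose labels name these ages, 3 per age, out of 45 libraries of the series and 15 of mMΦ. The series set microglia, mMΦ and perivascular macrophages (pvMΦ) sorted from brain at up to 5 ages side by side by bulk RNA sequencing, with replicates described as individual mice. Both groups were C57BL/6J mice of the genotype Cx3cr1GFP/wt, kept in a specific-pathogen-free facility and given no treatment, so the controls carry the same reporter allele. In this reporter line GFP stands in place of 1 copy of Cx3cr1, a chemokine receptor of macrophages and microglia. All 6 libraries came from the sequencing project labelled S232. Microglia of the same ages (3 libraries at E14.5, 2 at P3 from S232) served as the comparison population.

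Meningeal macrophages sit in the membranes that cover the brain. They arise before birth from embryonic progenitors, depend on signalling through the receptor Csf1r and are known for the mannose receptor Mrc1, the hyaluronan receptor Lyve1 and the chemokine Pf4. They take up material from the fluid around the brain and degrade it in lysosomes.

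Markers of border macrophages were present in each of the 6 libraries, as the label would have it. Whether these markers tell mMΦ from pvMΦ was not tested. Mrc1 lay between 2258 and 5122 CPM (counts relative to library size, scaled by TMM over all libraries), Pf4 between 2221 and 4761 CPM, and F13a1, a coagulation factor subunit of border macrophages, between 4429 and 5998 CPM. Sall1, the transcription factor that defines microglia, reached at most 1.91 CPM, against means of 132 ± 11.9 CPM in microglia at E14.5 and 233 ± 8.33 CPM at P3 (SD, n = 3 each). Total counts were 19571534 to 24245764 per library at E14.5 and 20699820 to 22668720 at P3. The first principal component held 42% of the variance and separated the ages, and the second (17.9%) spread the 3 P3 libraries.

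Features of single libraries that touch the results are given first. The library of E14.5 replicate 2 held transcripts of blood: erythroid markers summed to 728 CPM, against 101 and 77.5 CPM in the other two, and neutrophil markers to 161 CPM against at most 1.91 CPM. The library of P3 replicate 3 stood apart in immediate early genes, with a summed level of 13035 CPM against 3070 and 3379 CPM in the other P3 libraries. Sex differed with age: Xist, the RNA of the inactive X chromosome, stood at 30.2 and 71.8 CPM in E14.5 replicates 1 and 2 and at 0.725 CPM in replicate 3, and at 0 in the 3 P3 libraries, which all carried the Y-linked Ddx3y at 59.8 to 71.9 CPM. The effect of sex could therefore be held fixed only with a single E14.5 library.

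Of 12522 genes tested with edgeR's quasi-likelihood test, 1629 (13%) passed an adjusted p of 0.05 (Benjamini-Hochberg) and are called changed: 812 (6.48%) were higher at P3 and 817 (6.52%) lower. Among them 324 rose and 441 fell by more than 2-fold, and the median log2 fold change over all tested genes was -0.000815. The levels of the called genes did not overlap between the ages in any of the 1629, as was so for 4375 (34.9%) of all genes tested. The number called differed strongly between fits, and what set it was not tested. A fit over all 45 libraries with a batch term called 114 genes (86 higher, 28 lower), a fit over the 15 mMΦ libraries 303, and the comparison without the 2 Xist-carrying E14.5 libraries 110, all 110 among the 1629. None of the 1629 changed direction where tested. As their levels did not overlap between the ages, these fits could hardly reverse one, so this adds no support. Leaving out single libraries gave 787 to 1460 calls. On the X chromosome 49 of 387 tested genes (12.7%) were called, against 13.4% of 11687 autosomal genes. Counts of list members below are to be read beside the 13% of all genes called. Unless stated otherwise, each gene described below as having risen or fallen was also called in each of the 6 fits that left out 1 library.

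Most genes that mark border macrophages rose. Of 30 tested members, 22 were higher at P3, none was lower and 8 did not pass, with a median log2 fold change of 0.94. The scavenger receptor for haemoglobin and haptoglobin, Cd163, was at 68.2, 72.8 and 74 CPM at E14.5 and at 917, 865 and 977 CPM at P3. The P3 libraries were all over 10 times the E14.5 libraries, a log2 fold change of 3.70 ± 0.09 (SE; adjusted p = 9.6e-07). Cbr2, a carbonyl reductase, moved from 19.8, 17.8 and 25 CPM to 952, 874 and 745 CPM, 41.8-fold (log2 5.38 ± 0.17, adjusted p = 5.2e-06). The C-type lectin gene Cd209f went from 11.8, 3.35 and 9.79 CPM to 286, 249 and 147 CPM (log2 4.81 ± 0.47, adjusted p = 0.00085). Its relative Cd209g went from at most 0.645 CPM to 24.7, 19.2 and 8.62 CPM (log2 5.61 ± 0.95, adjusted p = 0.0077). The Cd209 genes are close copies, and how reads shared between copies were counted is not given in the sources used here.

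Folds were smaller for other named members. Lyve1 stood at 1818, 2451 and 2056 CPM at E14.5 and 3466, 3729 and 4915 CPM at P3 (log2 0.96 ± 0.15, adjusted p = 0.0055). Mrc1 rose 1.80-fold, from 2258, 2953 and 2526 to 4281, 4365 and 5122 CPM (adjusted p = 0.0026). Pf4 rose from 2321 ± 150 to 4648 ± 167 CPM (SD, n = 3; log2 1.02 ± 0.06, adjusted p = 0.00017). The membrane protein Ms4a7 rose 2.42-fold (adjusted p = 0.00047), the lectin Clec10a 2.76-fold (adjusted p = 0.00047) and the folate receptor Folr2 1.90-fold (adjusted p = 0.0097). Among the members that did not pass, F13a1 was at 5322, 5032 and 5998 CPM at E14.5 and 4429, 4671 and 5767 CPM at P3, overlapping between ages (log2 -0.12 ± 0.10, adjusted p = 0.52). Timd4, a receptor for phosphatidylserine that marks long-lived macrophages, had means of 48.8 ± 9.2 and 62.8 ± 9.1 CPM (adjusted p = 0.21). The iron exporter Slc40a1 had 1904 ± 197 and 1522 ± 116 CPM (adjusted p = 0.073), and the fatty acid receptor Cd36 585 ± 54.3 and 732 ± 106 CPM (adjusted p = 0.11). The count of 22 ran from 16 to 23 when 1 library was left out and was 20 without E14.5 replicate 2 and P3 replicate 3 together. It was 8 without both Xist-carrying E14.5 libraries and 6 in the fit over all 45 libraries.

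**Figure D1:**
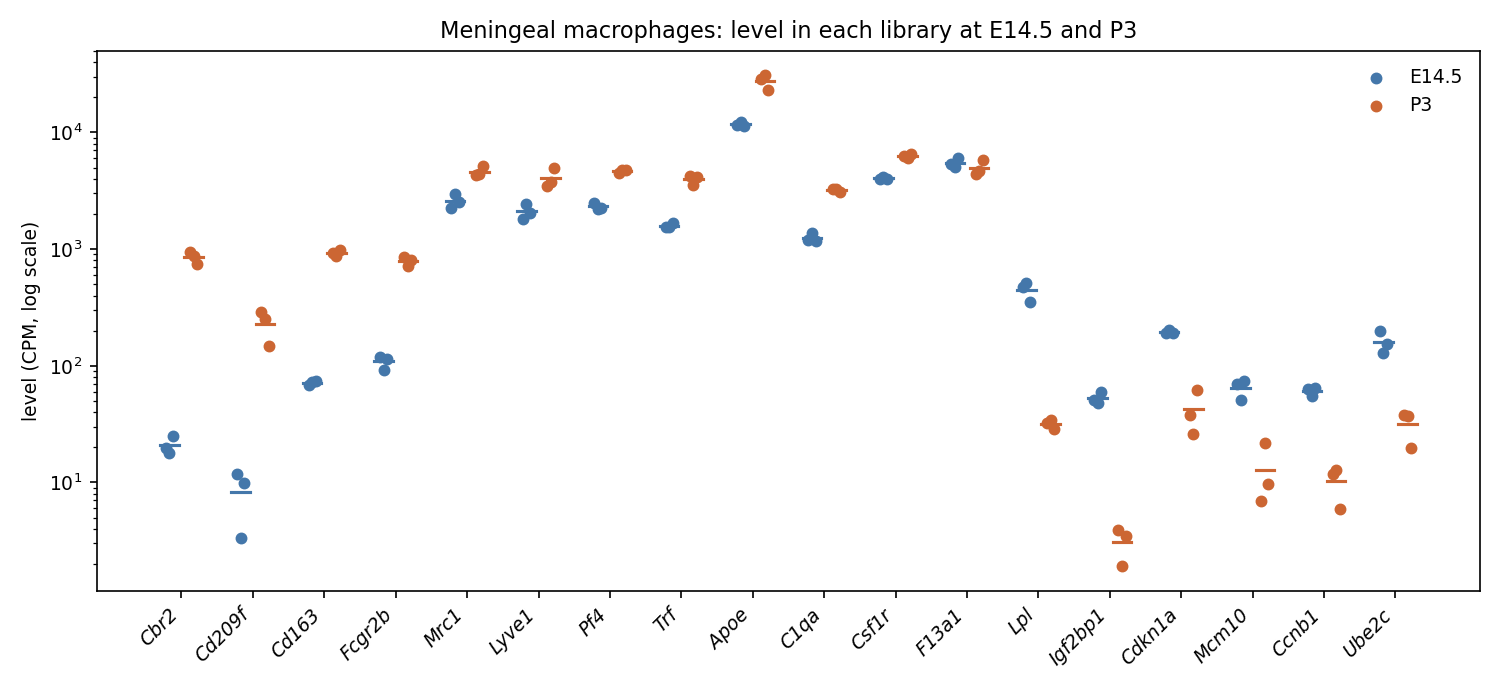
Level of 18 genes (x axis) in each of the 6 libraries, in CPM on a log axis; points are libraries, bars the mean of 3, blue E14.5 and orange P3. Cbr2 and Cd163 stand far above their E14.5 level at P3, F13a1 overlaps between the ages, and Lpl, Igf2bp1 and the cell cycle genes Mcm10, Ccnb1 and Ube2c stand below it.

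Receptors and transcription factors of macrophages changed in a minority of members. Csf1r, the receptor these cells need to survive, rose from 3992, 4170 and 4008 CPM to 6269, 5982 and 6510 CPM (log2 0.65 ± 0.06, adjusted p = 0.00049). Cx3cr1, counted here from a single functional allele, was at 525, 600 and 505 CPM and at 590, 588 and 701 CPM, and did not pass (adjusted p = 0.2). Of 29 receptors for chemokines, cytokines and growth factors, 7 were higher, 1 lower and 21 did not pass, so that 27.6% were called against 13% of all genes. The number higher was 4 without E14.5 replicate 1, and the number lower 0 without E14.5 replicate 1 or 3 or P3 replicate 2. The chemokine receptor Ccr1 rose 1.89-fold (adjusted p = 0.0026), and the interleukin receptor subunits Il13ra1 and Il10rb rose 1.88-fold (adjusted p = 0.0043) and 1.57-fold (adjusted p = 0.0024). The member that was lower was Ccr2, the receptor by which monocytes leave the marrow, at 21.1, 7.31 and 23.2 CPM before and 3.27, 0.421 and 0.421 CPM after birth. Its call (adjusted p = 0.032) was lost without E14.5 replicate 1 or 3 (0.11 each) and without P3 replicate 2 (0.089) or 3 (0.07).

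Among 35 myeloid transcription factors, 4 were higher, 4 lower and 27 did not pass, so that 22.9% were called against 13% of all genes. Maf, a factor of resident macrophages, rose from 431, 379 and 414 CPM to 597, 724 and 656 CPM (log2 0.71 ± 0.09, adjusted p = 0.0027). Ahr, the aryl hydrocarbon receptor, rose 2.60-fold (adjusted p = 0.011). Spi1, the master regulator of myeloid cells, was at 383 ± 9.22 and 432 ± 50.1 CPM and did not pass (adjusted p = 0.23). The number lower was 0 without E14.5 replicate 1, 1 without E14.5 replicate 3 or P3 replicate 1, 2 without E14.5 replicate 2 and 7 without P3 replicate 3.

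Genes of antibody sensing and complement mostly rose. Of 24 tested Fc receptor and complement genes, 14 were higher, 1 was lower and 9 did not pass (median log2 fold change 0.82). Fcgr2b, the inhibitory receptor for immunoglobulin G, went from 119, 92.9 and 115 CPM to 857, 712 and 808 CPM, 7.38-fold (log2 2.88 ± 0.12, adjusted p = 2.4e-05). The chains of C1q, which starts the classical complement cascade, rose with little scatter. C1qa went from 1190, 1381 and 1175 CPM to 3302, 3257 and 3055 CPM (log2 1.38 ± 0.08, adjusted p = 0.00017). C1qc rose 2.10-fold (adjusted p = 0.00017) and C1qb 1.74-fold (adjusted p = 0.00034). C2, the protease of the same cascade, rose 3.16-fold (adjusted p = 0.0006). The receptors C5ar1 and C3ar1 overlapped between the ages (adjusted p = 0.69 and 0.73). The count of 14 stayed between 12 and 13 in the fits without 1 library, and was 8 without both Xist-carrying libraries and 6 over all 45.

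Lysosomal genes were raised broadly but by small factors. Of 35 tested, 21 were higher, none lower and 14 did not pass (median log2 fold change 0.59). Man2b1, a mannosidase of glycoprotein breakdown, moved from 625, 730 and 675 CPM to 1671, 1668 and 1622 CPM (log2 1.31 ± 0.08, adjusted p = 0.00016). The protease cathepsin S (Ctss) rose 2.29-fold (adjusted p = 0.00047), and the tetraspanin Cd63 went from 244 ± 11.4 to 523 ± 32.4 CPM (adjusted p = 0.00034). Cathepsin B (Ctsb), at 9506 ± 255 and 10391 ± 244 CPM, missed the threshold (adjusted p = 0.068). The summed level of the list was 34562 to 35638 CPM at E14.5 and 46727 to 48253 CPM at P3, with no overlap. The count of 21 was 18 to 20 without 1 library, 13 over all 45 libraries and 7 without both Xist-carrying libraries.

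Of 30 scavenger and lectin receptors 16 were higher, 4 lower and 10 did not pass. The number lower was 2 without E14.5 replicate 1 or P3 replicate 2, 3 without any other 1 library, 1 without E14.5 replicate 2 and P3 replicate 3 together, and 0 over all 45 libraries, over the 15 of mMΦ and without both Xist-carrying libraries. The higher members included Cd163, the Cd209 genes, Mrc1 and Lyve1 described above, and so repeat part of the border macrophage list. Among the lower members, the scavenger receptor Marco held 2.84, 15.2 and 0.645 CPM at E14.5 and at most 0.0419 CPM at P3, highest in the library with blood transcripts. Its call (adjusted p = 0.014) was lost without E14.5 replicate 2 (0.073), P3 replicate 1 (0.06) or P3 replicate 2 (0.059). Of 25 genes of pattern recognition 5 were higher, 1 lower and 19 did not pass, so that 24% were called against 13% of all genes. The number higher was 3 without E14.5 replicate 3, and the lower member was called without P3 replicate 3 but in none of the other fits without 1 library. Cd14, the co-receptor for lipopolysaccharide, rose from 181, 199 and 151 CPM to 418, 407 and 639 CPM (adjusted p = 0.0024), and its partner Ly96 1.77-fold (adjusted p = 0.0064).

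**Figure D2:**
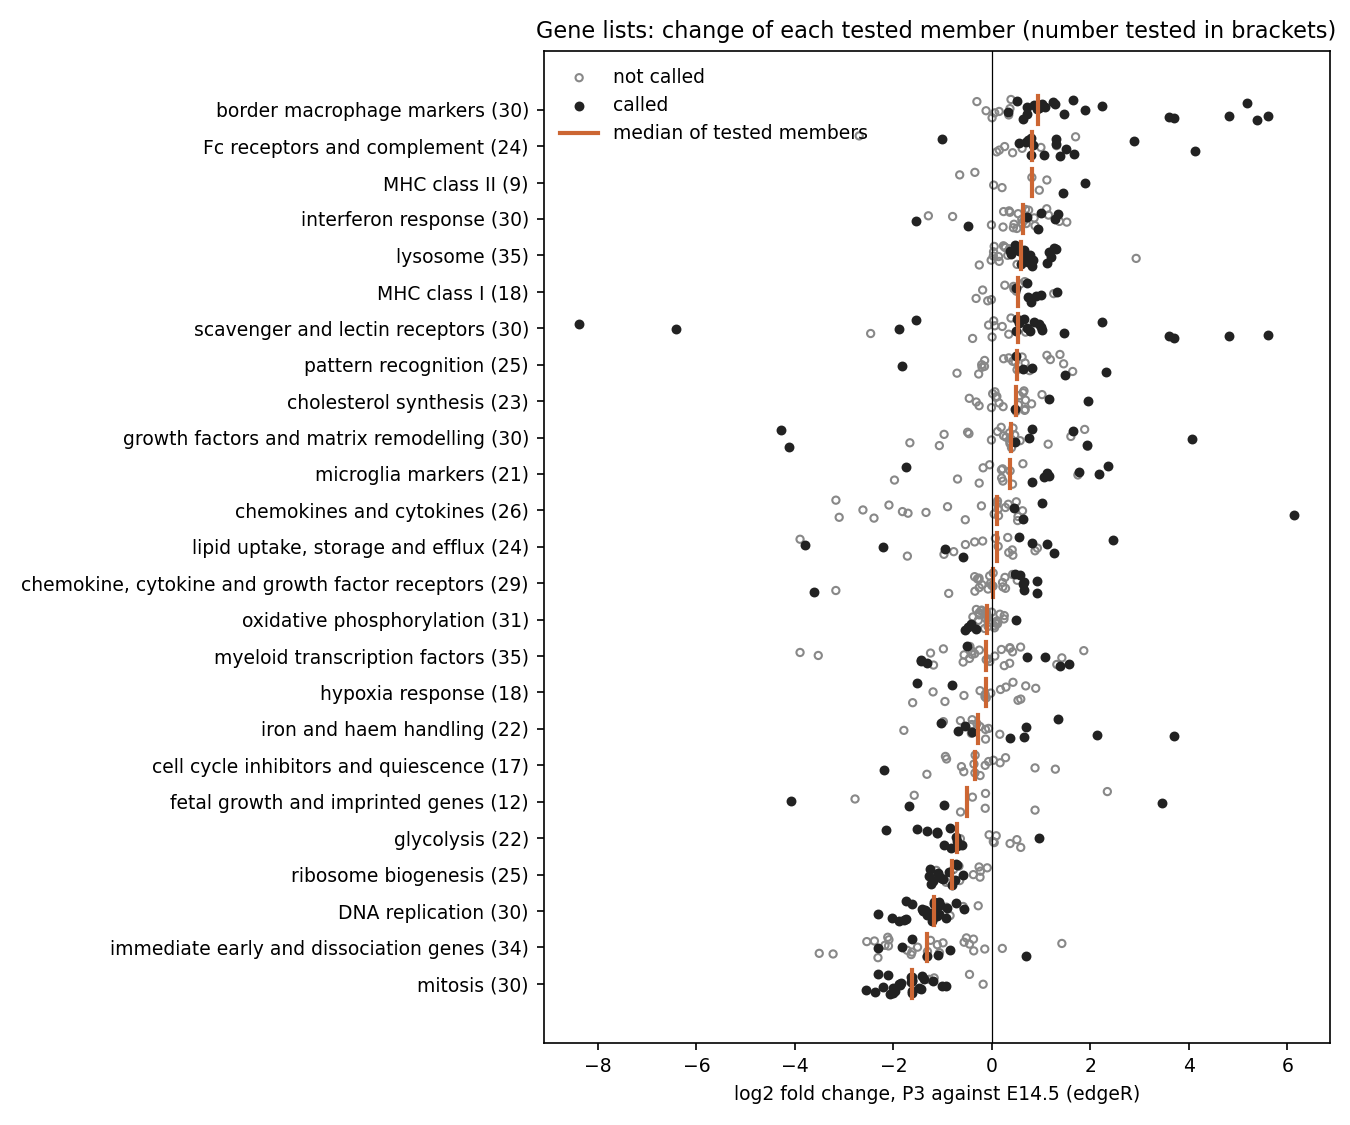
Log2 fold change at P3 against E14.5 (x axis) of each tested member of 25 gene lists (y axis, number tested in brackets), from edgeR; filled points passed an adjusted p of 0.05, open points did not, and the orange bar is the median. The medians run from -1.63 for mitosis to 0.94 for border macrophage markers, with immediate early genes mostly open despite a median of -1.32.

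The cell cycle lists had the largest share of lower members among the 25 lists of cell programmes. Of 30 mitosis genes 26 were lower, none higher and 4 did not pass, with a median log2 fold change of -1.63. The DNA replication list gave the same split, 26 lower, 0 higher and 4 not passing of 30 (median -1.18). Ccnb1, the cyclin that drives entry into mitosis, was at 62.9, 54.6 and 64.2 CPM at E14.5 and 11.9, 12.8 and 5.93 CPM at P3 (log2 -2.55 ± 0.29, adjusted p = 0.0018). The spindle checkpoint kinase Bub1 fell 5.19-fold (adjusted p = 0.00047). Ube2c, which helps degrade cyclins at the end of mitosis, went from 197, 129 and 155 CPM to 38.1, 36.9 and 19.7 CPM (adjusted p = 0.0019). The chromosomal passenger subunit Cdca8 fell 4.61-fold (adjusted p = 0.00033) and the spindle assembly factor Tpx2 4.33-fold (adjusted p = 0.00038). Top2a, the topoisomerase of dividing cells, was at 189, 208 and 281 CPM and at 67.3, 121 and 62.4 CPM (log2 -1.41 ± 0.27, adjusted p = 0.013). For Mki67, the standard marker of cycling cells, the values were 35.3, 83.7 and 66.2 CPM and 15, 27.7 and 16.5 CPM, apart but scattered. Its call (adjusted p = 0.022) was lost without E14.5 replicate 2 or 3 (0.076 each), P3 replicate 1 (0.074) or P3 replicate 3 (0.063).

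Genes that load and fire replication origins fell as well. Mcm10, needed to start DNA unwinding, was at 69.3, 50.7 and 74.2 CPM and at 6.91, 21.6 and 9.76 CPM (log2 -2.32 ± 0.40, adjusted p = 0.0089). The chromatin assembly subunit Chaf1a fell 4.06-fold (adjusted p = 0.00056), cyclin E1 (Ccne1) 3.72-fold (adjusted p = 0.0045), the helicase cofactor Cdc45 3.44-fold (adjusted p = 0.0014) and Uhrf1, which keeps DNA methylation through replication, 3.33-fold (adjusted p = 0.00048). Of 17 cell cycle inhibitors 1 was called, a share of 5.88% that is under the 13% of all genes. This member was Cdkn1a, a target of p53. It was lower at P3, from 192, 201 and 190 CPM to 38.2, 26.2 and 62.4 CPM (log2 -2.18 ± 0.28, adjusted p = 0.0024), while the other 16 did not pass. Without P3 replicate 3 the number lower was 4, and it was 3 without P3 replicate 2 and 3 without E14.5 replicate 2 and P3 replicate 3 together. In bulk samples, fewer dividing cells and less of these RNAs per cell cannot be told apart. The mitosis count was 21 to 26 and the replication count 20 to 26 in the fits without 1 library. Both were 6 without the 2 Xist-carrying E14.5 libraries and 0 in the fits over all 45 and over the 15 mMΦ libraries.

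The promoters of the mitosis genes are shown because these genes moved together and share short motifs that the lists did not use. RefSeq promoter windows of 300 bases (250 before to 50 after the start, GRCm38.p6) were found for 24 of the 30 mitosis genes. Both strands were searched for CCAAT, the box bound by NF-Y, and for TTTGAA, the core of the element known as CHR in cell cycle promoters; matches of the motifs may overlap. CCAAT was present in 22 of the 24 (91.7%), against 37.9% of all 27025 promoters, and TTTGAA in 18 (75%), against 18.1%. Both stood together in 18 of the 24, against 7.12% of all promoters. In the DNA replication list, of which 24 of 30 matched, the counts were 15 for CCAAT, 3 for TTTGAA (12.5%) and 2 for both. Of 16 called mitosis genes with both motifs, 12 hold both within 150 bases before to 30 after the start, and the 3 of these with the largest fall are printed over that window, 5′ to 3′ on the gene's strand, with CCAAT and TTTGAA or their reverse complements in capitals.
Ube2c, chr2:164769779-164769958, + strand: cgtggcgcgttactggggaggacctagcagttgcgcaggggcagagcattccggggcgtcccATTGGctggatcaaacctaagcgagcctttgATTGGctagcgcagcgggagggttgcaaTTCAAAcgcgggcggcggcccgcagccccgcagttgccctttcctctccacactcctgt
Cdca8, chr4:124936888-124937067, - strand: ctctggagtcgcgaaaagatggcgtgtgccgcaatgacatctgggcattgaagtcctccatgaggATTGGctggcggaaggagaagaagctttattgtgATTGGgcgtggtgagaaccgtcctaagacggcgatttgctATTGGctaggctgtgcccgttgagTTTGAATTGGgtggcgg
Hmmr, chr11:40733408-40733587, - strand: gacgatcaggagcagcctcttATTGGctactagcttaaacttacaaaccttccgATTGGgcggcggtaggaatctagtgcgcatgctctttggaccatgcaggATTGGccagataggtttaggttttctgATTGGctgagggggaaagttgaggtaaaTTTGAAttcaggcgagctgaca
Ube2c holds 2 CCAAT boxes and Cdca8 and Hmmr 4 each, with 1 TTTGAA apiece. Hmmr, a spindle protein, fell from 108, 96 and 77.4 CPM to 27.6, 31.3 and 18.5 CPM (log2 -1.84 ± 0.23, adjusted p = 0.0022). A match is a description of these letters and not evidence of binding.

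Ribosome biogenesis and glycolysis genes declined in many members. Of 25 ribosome biogenesis genes 14 were lower, none higher and 11 did not pass (median log2 fold change -0.80). Nolc1, a nucleolar phosphoprotein, went from 100, 144 and 142 CPM to 52.9, 50.8 and 53.9 CPM (log2 -1.27 ± 0.16, adjusted p = 0.0022). The pseudouridine synthase Dkc1 fell 2.34-fold (adjusted p = 0.0074), the nucleolar GTPase Gnl3 2.29-fold (adjusted p = 0.0094) and the box C/D protein Nop58 2.15-fold (adjusted p = 0.0056). The count was 7 without E14.5 replicate 1, 8 without P3 replicate 2 and 1 without both Xist-carrying libraries. Of 22 glycolysis genes 12 were lower, 1 higher and 9 did not pass (median -0.70). The lactate exporter Slc16a3 went from 15.2, 20.2 and 17 CPM to 3.6, 4.25 and 3.83 CPM (log2 -2.14 ± 0.28, adjusted p = 0.0026). Pyruvate kinase (Pkm) fell 2.17-fold, from 492, 449 and 552 CPM to 213, 247 and 218 CPM (adjusted p = 0.00062), and the lactate transporter Slc16a1 2.50-fold (adjusted p = 0.0015). The glycolysis count was 8 without E14.5 replicate 1 or 3 and 2 without both Xist-carrying libraries. Of 31 genes of oxidative phosphorylation 4 were lower, 1 higher and 26 did not pass (median -0.105), a share of 16.1% called that is near the 13% of all genes. Only 1 was lower without E14.5 replicate 1 or 3 or P3 replicate 2, 2 without P3 replicate 1, and 1 with the replicate number as a block. The ATP synthase subunit Atp5a1 fell from 1189 ± 34.3 to 803 ± 63.3 CPM (adjusted p = 0.0038). Of 18 hypoxia genes 2 were lower and 16 did not pass, and the 11.1% called is under the share of all genes. Without any 1 of the E14.5 libraries, or P3 replicate 2, 1 was lower. The pyruvate dehydrogenase kinase Pdk1 fell 1.74-fold (adjusted p = 0.011).

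Among fetal RNA-binding proteins 1 passed the test. Igf2bp1, a stabiliser of fetal transcripts, went from 51.1, 48.3 and 59.3 CPM to 3.94, 1.91 and 3.45 CPM, a 16.8-fold fall (log2 -4.07 ± 0.30, adjusted p = 0.00033). Its relative Igf2bp3 was at 128, 122 and 126 CPM at E14.5 and 90.9, 79 and 113 CPM at P3, apart but not called (log2 -0.39 ± 0.14, adjusted p = 0.1). Without P3 replicate 3 the adjusted p of Igf2bp3 was 0.031. Lin28b, which blocks let-7 microRNAs in fetal cells, was at 6.24, 0.888 and 9.47 CPM and at 3.35, 0.996 and 1.09 CPM, overlapping (adjusted p = 0.31). H19, an imprinted non-coding RNA, was at 25.1, 26.1 and 16.6 CPM and at 9.3, 5.44 and 5.93 CPM (adjusted p = 0.013), and its adjusted p was 0.058 without E14.5 replicate 1. Over the fetal and imprinted list, 3 of 12 tested were lower, 1 higher and 8 did not pass. The higher member was called in none of the 6 fits without 1 library.

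Genes of lipid handling moved in both directions. Lpl, the lipase that frees fatty acids from lipoproteins, fell from 470, 509 and 350 CPM to 32, 34 and 28.6 CPM, 13.8-fold (log2 -3.79 ± 0.17, adjusted p = 2.6e-05). Apoe, the carrier of cholesterol between cells, rose from 11681, 12321 and 11322 CPM to 28906, 30864 and 23186 CPM (log2 1.25 ± 0.10, adjusted p = 0.00047). The phospholipid transfer protein Pltp went from 47, 63.4 and 54.4 CPM to 364, 313 and 220 CPM (log2 2.47 ± 0.20, adjusted p = 0.00047). Npc1, which moves cholesterol out of lysosomes, went from 33.9 ± 4.64 to 72.9 ± 10.8 CPM (adjusted p = 0.0055). In all, 5 of 24 lipid genes were higher, 4 lower and 15 did not pass. The number lower was 1 without E14.5 replicate 2 or P3 replicate 2 and 2 without E14.5 replicate 1 or 3. Of 23 cholesterol synthesis genes 3 were higher and 20 did not pass, which at 13% equals the share of all genes. The number higher was 2 without P3 replicate 1 and 1 without any other 1 library. Msmo1, a sterol oxidase, rose 2.25-fold (adjusted p = 0.0026).

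Of 22 iron genes 6 were higher, 4 lower and 12 did not pass, with 2 lower without P3 replicate 2. Transferrin (Trf), the iron carrier of plasma, went from 1543, 1541 and 1677 CPM to 4207, 3526 and 4181 CPM (log2 1.34 ± 0.08, adjusted p = 0.00017). The ferroxidase Cp rose 4.41-fold (adjusted p = 0.00056). The ferritin light chain gene Ftl1 fell from 2758, 2241 and 2599 CPM to 1503, 1614 and 1561 CPM (adjusted p = 0.0021), and the haem transporter Slc48a1 2.04-fold (adjusted p = 0.00098). Hmox1, which degrades haem, was at 1243, 450 and 1071 CPM and at 80.2, 307 and 404 CPM, apart but too scattered to pass (adjusted p = 0.17).

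Some genes of antigen presentation rose. Of 18 class I genes 7 were higher, none lower and 11 did not pass. H2-T23, a non-classical class I gene, rose 2.49-fold (adjusted p = 0.0012), H2-K1 1.88-fold (adjusted p = 0.0042), and the shared light chain B2m went from 1445, 1397 and 1261 CPM to 2230, 2710 and 2110 CPM (adjusted p = 0.0028). The H2 genes are close copies, with the same reservation as for the Cd209 genes. Of 9 class II genes 2 were higher and 7 did not pass, with 1 higher without E14.5 replicate 1. The share called was 22.2%, against 13% of all genes. The invariant chain Cd74 went from 39.6, 30.9 and 40.3 CPM to 89.1, 98 and 108 CPM (log2 1.44 ± 0.15, adjusted p = 0.0011), and H2-Aa reached at most 1.15 CPM. Of 30 interferon response genes 5 were higher, 2 lower and 23 did not pass, so that 23.3% were called against 13% of all genes. Oasl2, an interferon-induced antiviral protein, rose 2.53-fold (adjusted p = 0.0021) and Bst2, which tethers virions, 1.91-fold (adjusted p = 0.0066). The interferon count was 10 without P3 replicate 3 and 2 or 3 without any other 1 library, and the class I count was 10 without P3 replicate 3. Both were 0 without both Xist-carrying libraries.

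Secreted products changed in a few members. Of 26 chemokines and cytokines 4 were higher, none lower and 22 did not pass, a share of 15.4% that is near the 13% of all genes, with 2 higher without any 1 of the E14.5 libraries. Ccl8 went from at most 0.424 CPM to 25.1, 10.6 and 12 CPM (log2 6.14 ± 0.70, adjusted p = 0.0017). Retnla, a secreted resistin-like product of alternatively activated macrophages, went from at most 0.202 CPM to 412, 79.1 and 148 CPM (log2 11.1 ± 1.06, adjusted p = 0.0019), with the 3 P3 libraries spread more than 5-fold. Of 30 growth factor and matrix genes 6 were higher, 2 lower and 22 did not pass, so that 26.7% were called. The number lower was 0 without P3 replicate 1, 1 without any 1 of the E14.5 libraries and 4 without P3 replicate 3. The gelatinase Mmp9 went from 19.2, 20.2 and 19.7 CPM to 307, 193 and 469 CPM (log2 4.06 ± 0.30, adjusted p = 0.00034). Tgfbi, a matrix protein induced by TGF-β, went from 257, 278 and 288 CPM to 846, 833 and 853 CPM (log2 1.64 ± 0.08, adjusted p = 3e-05). Tgfb1 itself was at 166 ± 17.4 and 178 ± 22.5 CPM (adjusted p = 0.6). The growth and differentiation factor Gdf15 fell from 27.5, 27.2 and 21 CPM to 0.544, 0.613 and 2.78 CPM (log2 -4.25 ± 0.63, adjusted p = 0.0044). Its level was not low at all later ages, with 41.8 ± 16.9 CPM at P10, 21.7 ± 8.44 at P21 and 6.14 ± 3.41 CPM at P56 (no test).

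Immediate early genes, which respond within minutes to stimulation and to tissue dissociation, differed between the ages and within P3. Their summed level was 25258 to 25877 CPM at E14.5. At P3 it was 3070 and 3379 CPM in replicates 1 and 2 and 13035 CPM in replicate 3, still without overlap. Of 34 tested, 6 were lower, 1 was higher and 27 did not pass (median log2 fold change -1.32). The share called was 20.6%, against 13% of all genes. Without P3 replicate 3, 30 of the 34 were lower, and without any 1 of the E14.5 libraries 3 were. The transcription factor Egr1 was at 4733, 4722 and 5281 CPM and at 118, 226 and 943 CPM (log2 -3.50 ± 0.83, adjusted p = 0.052). Without P3 replicate 3 its adjusted p was 0.00021. Zfp36, which destabilises cytokine mRNAs, was at 2662 ± 119 CPM and at 196, 244 and 1389 CPM (adjusted p = 0.17, and 1.6e-05 without P3 replicate 3). Ier5 and Rhob, called in each of the 6 fits without 1 library, fell 3.56-fold (adjusted p = 0.011) and 3.09-fold (adjusted p = 0.0029). The chemokine genes Ccl2 and Cxcl2 were also highest, among P3 libraries, in replicate 3. Ccl2 was at 644, 781 and 735 CPM and at 186, 225 and 1062 CPM, and Cxcl2 at 619 ± 81.4 CPM and at 20.3, 45.5 and 234 CPM. Without P3 replicate 3, 11 of the 26 chemokines and cytokines were lower, and Ccl2 (adjusted p = 0.0004) and Cxcl2 (0.00076) were among them. The part of sorting and dissociation in these levels was not tested.

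Some genes known from microglia rose. Of 21 tested, 7 were higher, 1 lower and 13 did not pass, and 7 were higher in each fit without 1 library. Sall1, Tmem119, Siglech and Cx3cr1 were among those that did not pass. The purine receptor P2ry12 went from 144, 202 and 165 CPM to 370, 332 and 386 CPM (log2 1.11 ± 0.14, adjusted p = 0.0021). In microglia it was at 2576 ± 113 CPM at E14.5 and 4018 ± 1331 CPM at P3 (SD, n = 3 each). These 3 P3 libraries include 1 of project S276 that the interaction test leaves out. By the interaction test described below, its change was not called different from that of microglia (adjusted p = 0.59). P2ry13 rose 3.40-fold (adjusted p = 0.00036), the matrix protein Sparc 5.16-fold (adjusted p = 0.01) and Olfml3 4.54-fold (adjusted p = 0.01). Slc2a5, the fructose transporter, was the member that fell, from 14.4, 18.4 and 23.4 CPM to 6.2, 5.32 and 4.92 CPM (adjusted p = 0.0071).

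Markers of some other cells moved with age. Of 16 tested fibroblast and leptomeningeal genes 9 were higher, none lower and 7 did not pass. Their summed level was 17.7, 34.9 and 40.7 CPM at E14.5 and 280, 295 and 349 CPM at P3. Ptgds, the prostaglandin D synthase of the leptomeninges, went from 0.806, 0.41 and 0.524 CPM to 128, 124 and 83.4 CPM (log2 7.63 ± 0.31, adjusted p = 2.2e-05). The retinoic acid enzyme Aldh1a2 went from at most 0.721 CPM to 22.5, 27.8 and 24.5 CPM (adjusted p = 0.0034), and Igfbp2, a binding protein of insulin-like growth factors, rose 8.25-fold (adjusted p = 0.0036). Ogn, a matrix proteoglycan, had no count at E14.5 and 2.09, 5.59 and 4.42 CPM at P3, at least 106-fold higher by a floor of 3 counts over the group. The collagen gene Col1a1 was at 0.891, 0.785 and 4.23 CPM and at 5.91, 9.08 and 26.6 CPM (adjusted p = 0.06). The mural cell list summed to 4.8, 7.78 and 5.64 CPM and to 39.5, 28.7 and 40.8 CPM, without overlap, and 1 of its 3 tested genes, Vtn, rose 9.58-fold (adjusted p = 0.0027). The monocyte list summed to 26.5, 15 and 26.7 CPM at E14.5 and to 6.32, 4.44 and 4.21 CPM at P3, also without overlap. Of its 3 tested genes Ccr2, described above, and Plac8 were lower. Plac8 was at 4.58, 0.41 and 3.02 CPM and at most 0.168 CPM (adjusted p = 0.04), a call lost without any 1 library other than E14.5 replicate 2 (0.088 to 0.16). The part of such cells or their free RNA in the genes that changed was not tested. In the erythroid list 1 of 8 tested genes was higher and 1 lower (25% called). In the endothelial list 1 of 7 was higher, a share of 14.3% that is near the 13% of all genes. None was called of 8 tested neuronal, 6 astrocyte and progenitor, 5 oligodendrocyte and 4 dendritic cell genes. The platelet, B cell, choroid plexus, neutrophil and mast cell lists had only 0 to 2 genes above the count filter, too few to describe. Hbb-bt, the called haemoglobin gene, was at 6.41, 123 and 4.84 CPM before birth and at most 0.115 CPM after it. Its call (adjusted p = 0.031) was lost without P3 replicate 1 (0.1) or 2 (0.12). In the T and NK cell list only Cd4 passed the count filter, and it rose from 19.9, 34.2 and 23.1 CPM to 110, 118 and 112 CPM (log2 2.16 ± 0.21, adjusted p = 0.00079).

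**Figure D3:**
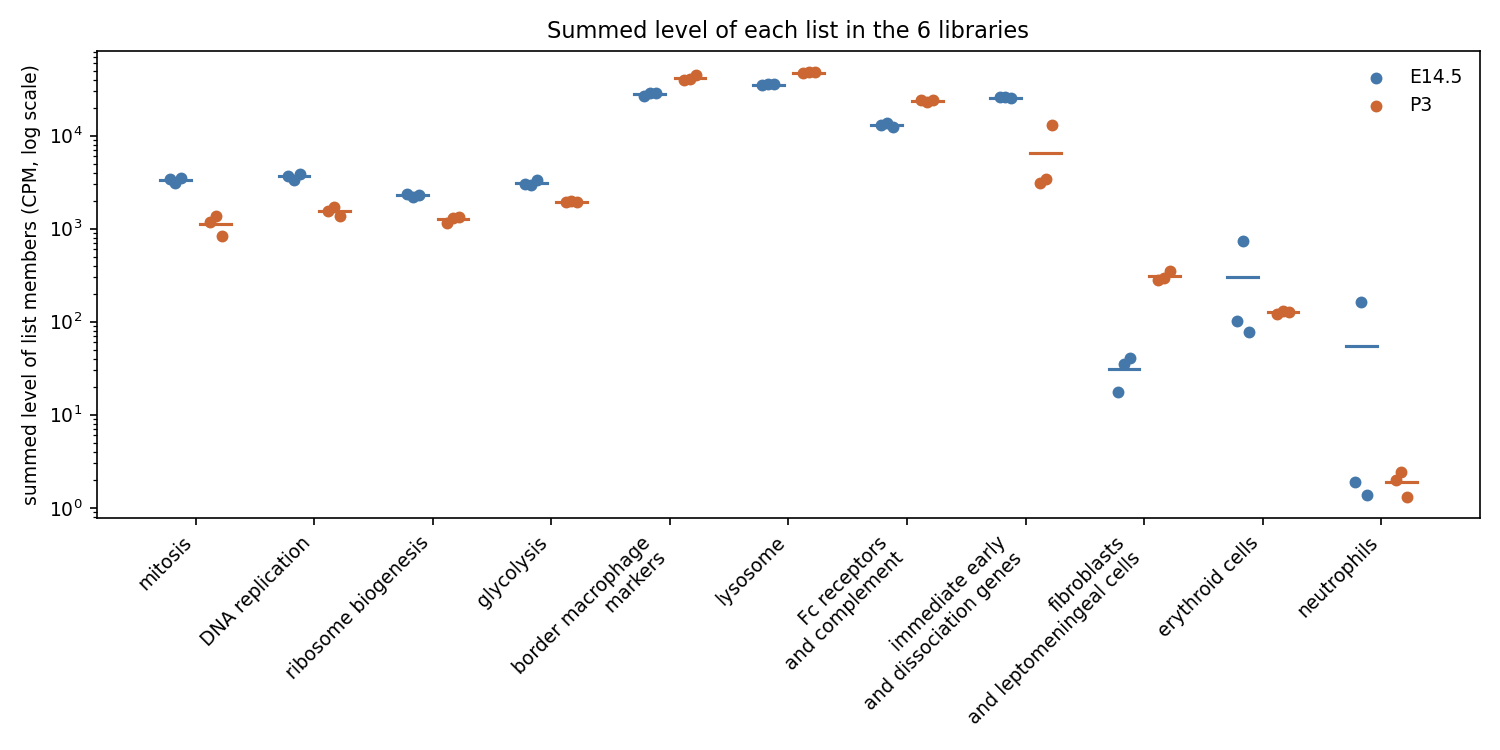
Summed level of 11 gene lists (x axis) in each of the 6 libraries, in CPM on a log axis; points are libraries, bars the mean of 3, blue E14.5 and orange P3. Mitosis fell from 3115 to 3500 CPM to 828 to 1370 CPM, P3 replicate 3 stands apart in immediate early genes, and E14.5 replicate 2 stands apart in erythroid and neutrophil markers.

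Whether the step from E14.5 to P3 differed from that of microglia was tested as an interaction over 11 libraries of project S232. Of 15073 genes, 62 (0.411%) differed: 40 (0.265%) with a higher and 22 (0.146%) with a lower change in mMΦ, and 36 were also called within mMΦ. The libraries were fitted as independent. With same-numbered libraries of 1 age as a block 16 genes were called, 12 of them among the 62. The design held only 2 microglia libraries at P3, and leaving out E14.5 mMΦ replicate 2 or 3 gave 19 calls. With 1 P3 microglia library left, which is then assumed to vary like the other groups, the number was 1644 without replicate 3 and 166 without replicate 2. Of the genes described here, Cd163, Mmp9, Ms4a4a and Lpl kept their call in each fit without 1 library, and Retnla, Igf2bp1, Phgdh, Cdkn1a and Ccl24 lost it in some. Cd163 stood at or below 0.666 CPM in all microglia libraries, where it was barely measured, against the rise in mMΦ given above (difference 6.30 ± 0.45 on the log2 scale, adjusted p = 0.00011). Mmp9 and Retnla showed the same form, with at most 0.809 and 0.435 CPM in microglia (adjusted p = 0.00092 and 0.018). Ms4a4a, a membrane protein of the Ms4a family, stayed at 301 to 387 CPM in mMΦ. In microglia it was at 19.5, 21.5 and 23 CPM at E14.5 and at 0.048 and 0 CPM in the 2 P3 libraries of the test (difference 9.39 ± 0.40, adjusted p = 2e-06). The third P3 microglia library, of project S276 and outside the test, held 15.3 CPM, and with it added the adjusted p of Ms4a4a was 0.73. Igf2bp1 was at 9.53, 17.2 and 14.4 CPM in E14.5 microglia and at most 0.048 CPM at P3, against the 16.8-fold fall in mMΦ (difference 4.86 ± 0.86, adjusted p = 0.042).

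Other genes had a lower change in mMΦ. Lpl was in microglia at 423, 442 and 489 CPM at E14.5 and at 568 and 905 CPM in the 2 P3 libraries, while in mMΦ it fell 13.8-fold (difference -4.48 ± 0.28, adjusted p = 5.2e-05). Phgdh, the first enzyme of serine synthesis, was at 116, 105 and 83.4 CPM and at 75.9 and 126 CPM in microglia, against 7.6, 7.2 and 14.6 CPM and at most 1.03 CPM in mMΦ (difference -3.80 ± 0.65, adjusted p = 0.037). Cdkn1a stayed at 80.7 to 108 CPM at E14.5 and 85.2 and 126 CPM at P3 in microglia (difference -2.33 ± 0.40, adjusted p = 0.037). Ccl24, an eosinophil chemokine, was at 6.53, 3.19 and 3.35 CPM and at 65 and 36.4 CPM in microglia, and at 296 ± 30 and 454 ± 91.4 CPM in mMΦ (difference -2.89 ± 0.44, adjusted p = 0.022).

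The levels of the followed genes at the later ages are given as a description with no test (mean ± SD, n = 3 per age). Cd163 was at 71.7 ± 3.07 CPM at E14.5, 920 ± 56.1 at P3, 556 ± 9.12 at P10, 1163 ± 110 at P21 and 901 ± 273 CPM at P56, with P3 and P56 less than 1 SD of P56 apart. Lpl was at 31.5 ± 2.74 CPM at P3 and 42.7 ± 37.1 CPM at P56. Cbr2 and Apoe were still higher later, at 2731 ± 258 and 74430 ± 6026 CPM at P56. Lyve1 was highest at P3, at 4037 ± 772 CPM, against 2108 ± 320 at E14.5 and 1277 ± 117 CPM at P56. Igf2bp3 was at 94.2 ± 17.1 CPM at P3, 53.4 ± 2.03 at P10, 33.2 ± 16.7 at P21 and 1.77 ± 2.51 CPM at P56. Cd74 was at 98.4 ± 9.46 CPM at P3 and 9432 ± 2685 CPM at P56. Cdkn1a and Egr1 were lowest at P3 among the 5 ages, with 42.2 ± 18.5 and 429 ± 448 CPM, against 366 ± 28.3 and 1919 ± 516 CPM at P10.

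**Figure D4:**
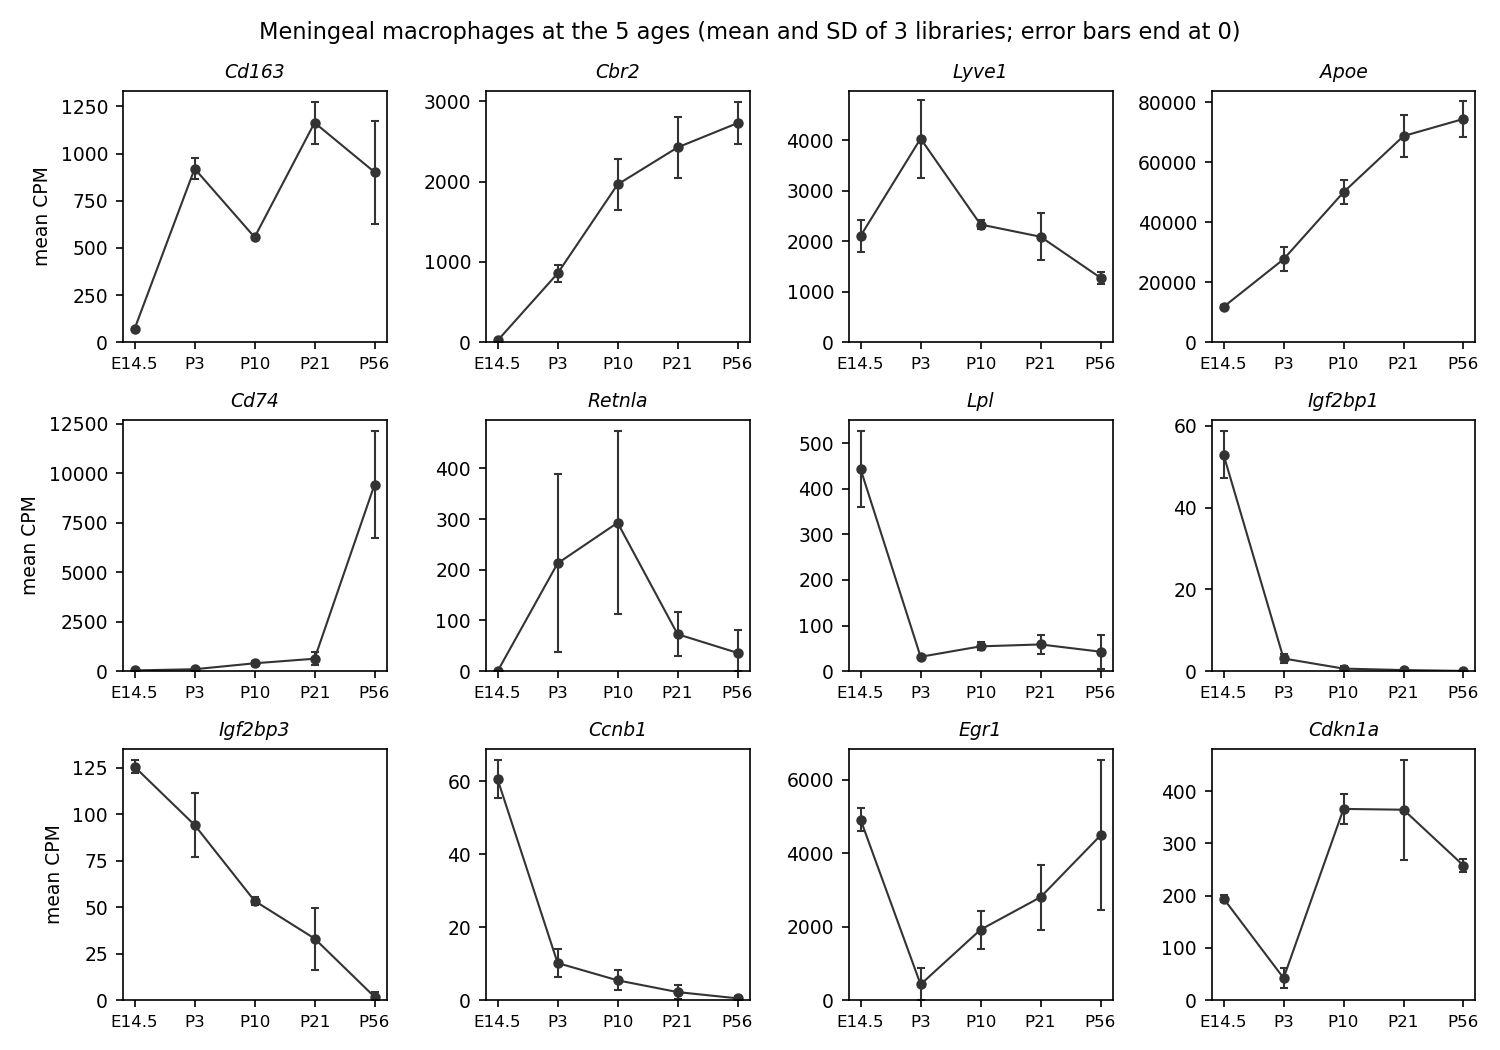
Mean level in CPM (y axes, linear, from 0) of 12 genes in mMΦ at the 5 ages (x axis, ages in order and not to scale); points are means of 3 libraries and error bars SD, ended at 0. Cd163 reaches 920 CPM at P3 and Lpl falls to 31.5 CPM by then, while Cd74 stays at 98.4 CPM at P3 against 9432 CPM at P56.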

How the data were processed

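The authors deposited 1 table of raw gene counts per library (53546 symbols, 45 columns, all used). Per the submitters' processing notes, bcl2fastq 2.18, STAR 2.7.8a and featureCounts 2.0.2 were used; genome build, annotation, strand setting and multi-mapping rule remain not given in the sources used here. Per the labels' protocols, cDNA came from sorted cells by an ultra-low-input kit that keeps no strand, so overlapping antisense genes cannot be separated. The series' design names individual mice, but not which library is which animal.

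From these counts edgeR 4.0.16 (R 4.3.3) fitted the 6 mMΦ libraries alone: filterByExpr (minimum count 10, total 15), TMM, robust quasi-likelihood F test, Benjamini-Hochberg adjusted p under 0.05. The 6 were fitted alone so that these ages kept their own spread. The common dispersion was 0.165 in this fit. It was 0.339 in the interaction fit, which held the same 2 ages and added microglia, so this value does not show the spread of other ages. SE is the log2 fold change over the root of F. CPM use TMM over all 45 libraries. The interaction with microglia used 11 libraries. Over genes with at least 20 counts per pair, libraries of 1 age had chi-square values of 28.3 to 70.4 times their degrees of freedom. Scatter between libraries thus exceeded counting error as an average over these genes, which need not hold for genes with few counts. On simulated counts (12092 genes) 126 genes were called, 9 of them falsely (7.14%, above the 0.05 threshold), and 24 of 67 2-fold, 43 of 67 4-fold and 50 of 66 8-fold changes were recovered. The simulation changed far fewer genes than were called here and set no library apart. It therefore does not give the false share of the real comparison.

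Genes named are the 15 with the largest fold change each way (called, at least 20 CPM in a group, no overlap), the 8 with the largest CPM difference each way, 8 each way for the interaction, up to 5 called and 2 uncalled per list, and genes followed throughout; a choice of them is described. The members, the 41 lists (25 of programmes, 15 of other cells, 1 of sex-linked genes) and the tests were chosen with earlier results of these data known. Alternatives were DESeq2 1.42.0, limma 3.58.1 voom, other scaling, no filter, wider fits and left-out libraries. Some list members are not reported here.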

Additional observations from a re-analysis of the deposited data

Results flagged for a closer look

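The 16 genes named here were called by the interaction test of edgeR over 11 libraries, with 2 microglia libraries at P3. It compares the change from E14.5 to P3 between mMΦ and microglia and fitted the libraries as independent. With same-numbered libraries of 1 age as a block, 12 of the 62 genes called by this test were still called. Which of the 16 are among those 12 is not reported here. Of the 16, only Mmp9, Cd163, Slc25a24, Unc119, Gypc, Ms4a4a and Lpl kept their call in each fit without 1 library; 4, 7 and 8 of the 16 lost it without E14.5 microglia replicate 1, 2 and 3. With the S276 library added, 43 genes were called, and Gypc (adjusted p = 0.86), Ms4a4a (0.73) and Oas2 (0.36) were not. By voom Lpl alone of the 16 was called. Differences are on the log2 scale, mMΦ minus microglia, with SE. The change was higher in mMΦ for Retnla (11.14 ± 1.65, adjusted p = 0.018) and Mmp9 (7.82 ± 0.74, adjusted p = 0.00092). It was also higher for Cd163 (6.30 ± 0.45, adjusted p = 0.00011) and Igf2bp1 (4.86 ± 0.86, adjusted p = 0.042). Within mMΦ alone the log2 fold change was 4.06 for Mmp9 and 3.70 for Cd163. In microglia these genes reached at most 0.809 and 0.666 CPM, so the sizes of their differences rest partly on levels near the floor. Igf2bp1 itself fell in mMΦ (log2 -4.07), and by more in microglia. A further 4 were not called within mMΦ and were at most 0.0959 CPM in the 2 P3 microglia libraries of the test. The membrane protein Ms4a4a differed with adjusted p = 2e-06 and Gypc, a glycophorin, with adjusted p = 0.00046. Gypc was at 65.6 to 70.2 CPM and at 72.7, 45.8 and 47.8 CPM in mMΦ, at 5.08, 3.71 and 4.63 CPM in E14.5 microglia and at 0 in both P3 libraries, while the S276 library outside the test held 4.93 CPM. Unc119, a lipid-binding trafficking factor, differed with adjusted p = 0.00046 and the mitochondrial carrier Slc25a24 with adjusted p = 0.0027. Slc25a24 was listed at 0 in all 3 P3 microglia libraries, so no fold is given.

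The change was lower in mMΦ for Lpl (-4.48 ± 0.28, adjusted p = 5.2e-05), Slc2a5 (-2.28 ± 0.33, adjusted p = 0.016), the Fc receptor-like gene Fcrl1 (-3.53 ± 0.52, adjusted p = 0.018), Ccl24 (-2.89 ± 0.44, adjusted p = 0.022), Phgdh (-3.80 ± 0.65, adjusted p = 0.037) and Cdkn1a (-2.33 ± 0.40, adjusted p = 0.037). For Ccl24 the mean was higher at P3 in both populations, with the smaller log2 change in mMΦ. The antiviral gene Oas2 (-5.27 ± 0.89, adjusted p = 0.037) was at 30.4, 35.5 and 27.2 CPM and at 12.8, 25.6 and 14.4 CPM in mMΦ, and at most 1.04 CPM in E14.5 microglia and 13.4 and 9.6 CPM in the 2 P3 libraries of the test, while the S276 library held 0. The protease Klk8 (adjusted p = 0.037) had a single count in the 3 P3 mMΦ libraries, against 2.93, 1.19 and 2.82 CPM at E14.5, and 11.3 and 6.43 CPM in P3 microglia.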

How the results depend on the processing

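All 1629 called genes that could be tested kept their direction under every alternative for the P3 against E14.5 comparison. With no overlap between the ages little else was possible, so this adds no support. The number of called genes did not hold. It was 2481 by DESeq2's Wald test, 114 in the fit over all 45 libraries with a batch term, 303 over the 15 mMΦ libraries, 110 without both E14.5 libraries with Xist and 1041 without E14.5 replicate 2 and P3 replicate 3 together, the last chosen after seeing the data. It ran from 787 to 1460 when 1 library was left out. DESeq2 size factors (1631), no filter on low counts (1700) and voom (1930) stayed within 1.5 times. Replicate numbers did not pair the samples (correlations of deviations -0.0355, -0.0245 and 0.0119), and with the number as a replicate block 1087 genes were called. Of the 3 same-numbered pairs only that of the replicates 3 correlated best with each other. Between mMΦ and microglia of the same age each of the 5 same-numbered pairs did, with correlations of 0.0101 to 0.0594. The main interaction test left this pairing out. For the interaction with microglia, called for 62 genes, the counts were 227 without the filter, 575 by DESeq2's Wald test, 6 by voom, 16 with the replicate block and 12 over all 45 libraries, and 19 to 1644 when 1 library was left out. Of 172 called genes tested under the alternatives, 118 were called in all 6 fits that left out 1 library, 91 over the 15 mMΦ libraries, 46 over all 45 and 53 without both Xist-carrying libraries. Of the 12 genes called for the interaction over all 45 libraries, only 4 were among the 62. Depth limits genes near 1 CPM, where an uncalled gene says little.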

Other observations

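Further gene groups were drawn up after the values were seen and are given as counts with no test, beside the 13% of all genes called. Of 24 genes of amino acid synthesis and targets of the stress factor ATF4, 21 were tested, and 12 were lower at P3, 1 higher and 8 not called. Psat1, of serine synthesis, was at 138, 129 and 146 CPM at E14.5 and 37.8, 40.8 and 46 CPM at P3 (log2 -1.71 ± 0.12, adjusted p = 0.00029). The amino acid transporter Slc7a5 fell from 39.2, 33.9 and 47.5 CPM to 7.37, 8.08 and 13.8 CPM (adjusted p = 0.0037) and the stress factor Ddit3 from 39.2 to 12.6 CPM in the mean (adjusted p = 0.01). Atf4 itself was at 216, 198 and 208 CPM and at 55.8, 44.2 and 111 CPM (adjusted p = 0.014), a call lost without E14.5 replicate 1 (0.059), E14.5 replicate 3 (0.05) or P3 replicate 1 (0.055). The cystine transporter Slc7a11 was the member that rose, from at most 0.205 CPM to 6.49, 2.83 and 5.43 CPM (adjusted p = 0.0044). Of 20 targets of the oxidative stress factor NRF2, 12 were lower, 1 higher (again Slc7a11) and 7 not called. The thioredoxin reductase Txnrd1 fell from 184, 163 and 143 CPM to 52.1, 40.4 and 39.1 CPM (log2 -1.87 ± 0.16, adjusted p = 0.00048), and the glutathione synthesis subunit Gclm from 103, 84.5 and 71.3 CPM to 37.7, 30.9 and 26.8 CPM (adjusted p = 0.0033). Osgin1 fell from 22.5 to 4.49 CPM in the mean (adjusted p = 0.0015).

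In the remaining groups some members rose. Of 15 tested genes of eicosanoid metabolism 7 were higher, none lower and 8 not called. The phospholipase Pla2g7, which inactivates platelet-activating factor, went from 87.8, 95.5 and 97.3 CPM to 552, 500 and 692 CPM (log2 2.65 ± 0.13, adjusted p = 4.4e-05). Hpgd, which degrades prostaglandins, went from 241, 237 and 223 CPM to 683, 753 and 544 CPM (adjusted p = 0.00047), and the leukotriene synthase Ltc4s from 64.5, 64.8 and 51.8 CPM to 191, 191 and 210 CPM (adjusted p = 0.00031). Ptgds, counted here among the 7, is also in the leptomeningeal list. Of 15 genes that break down glycosaminoglycans 8 were higher, none lower and 7 not called. Hgsnat, an acetyltransferase of heparan sulfate breakdown, went from 642, 698 and 727 CPM to 3012, 2728 and 2730 CPM (log2 2.06 ± 0.08, adjusted p = 1.6e-05). Arsb, which removes sulfate from dermatan sulfate, went from 58.3, 64.1 and 57.8 CPM to 109, 151 and 126 CPM (adjusted p = 0.0024). Outside these groups, the oxysterol receptor Gpr183 went from 122, 152 and 137 CPM to 409, 531 and 443 CPM (adjusted p = 0.00033), the NAD-degrading enzyme Cd38 from 111, 155 and 123 CPM to 497, 430 and 487 CPM (adjusted p = 0.00033) and the phosphatase Dusp6 from 296, 299 and 309 CPM to 812, 940 and 764 CPM (adjusted p = 0.00017).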
